A study of Mus musculus with 2 samples.

Results

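The genes described are 10 members of the tumor necrosis factor (TNF) and NF-kB pathway, namely Tnf, Tnfrsf1a, Tnfrsf1b, Nfkb1, Nfkb2, Relb, Nfkbia, Nfkbiz, Tnfaip3 and Birc3. They were chosen by symbol from the 32285 genes of the count tables, and each symbol matched 1 gene, by its Ensembl identifier. The single-cell libraries came from pancreatic tumors that grew after KPC cells, a mouse pancreatic cancer line, were placed in the pancreas of a host mouse. One library was labelled FLOX, from a host whose lactate transporter gene Slc16a1 (protein MCT1) carries loxP sites, and 1 library was labelled MCT1-KO, from a Col1a2-CreERT2 host in which that gene was to be deleted. Tamoxifen, which activates this Cre, was injected before implantation, and whether the FLOX host received it or its corn oil carrier is not given in the sources used here. The Col1a2 promoter is active in fibroblasts and stellate cells, and the injected KPC cells carry no such Cre. With 1 library per genotype there is no replicate and no test, genes are called higher or lower by a fixed fold only, and every interval below is a 95% interval for counting error.

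TNF is a cytokine made mainly by myeloid cells. It binds TNFR1 (gene Tnfrsf1a), which most cell types carry, and TNFR2 (gene Tnfrsf1b), which is found mostly on immune and endothelial cells. Receptor binding activates IkB kinases, IkB proteins such as the Nfkbia product are degraded, and NF-kB dimers enter the nucleus, where they switch on their own inhibitors Nfkbia and Tnfaip3 together with inflammatory and survival genes. In pancreatic cancer this pathway is known as a link between inflammation and tumor cell survival.

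Barcodes with at least 500 UMIs (unique molecule counts), 200 to 5000 genes and a mitochondrial share of at most 8% were kept, 8739 in the flox library and 11689 in the library labelled MCT1-KO. Their median depth was 4069 and 3706 UMIs. Cells were clustered without the 10 genes and without 62 further pathway genes among the variable genes, and clusters were grouped into 10 classes named from fixed markers. The classes held between 94 and 6413 cells, and 5 clusters stayed unnamed with 24.2% of flox cells and 33.8% of cells in the other library. The tumor-like class was named from 9 markers, of which 5 were detected in at least 10% of cells in each of its clusters. One of the 9, the epithelial keratin Krt8, was at 416 and 530 CPM (the UMIs of a gene scaled to the UMI total of the class and library). The leukocyte gene Ptprc was low, at 6.89 and 3.44 CPM. The 9 markers summed to 1083 and 1306 CPM. In the same cells the fibroblast markers summed to 2144 and 1357 CPM and the duct markers to 3733 and 2894 CPM, both higher. Slc16a1 in fibroblast-like cells was at 25.5 CPM (57 UMIs) in the flox library and 35.4 CPM (112 UMIs) in the other, a ratio of 1.39 (1.00 to 1.95), so the targeted gene was not lower there, against the label. The collagen genes Col1a1 (5814 against 3772 CPM, ratio 0.65, 0.63 to 0.67) and Col1a2 (6456 against 3768 CPM, ratio 0.58, 0.57 to 0.60), which are not targeted, were lower in the same cells of that library. Which exons lie between the loxP sites is not given in the sources used here. Whether a 3' count falls with the deletion could therefore not be checked. The study itself reported lower MCT1 expression in stellate cells of the knockout in its single-cell data. It also reported reduced MCT1 protein and RNA in isolated stellate cells and less MCT1 staining in collagen-positive areas. The libraries also differed in 13 dissociation and heat shock genes, which summed to 20330 CPM in flox and 10926 CPM in the other library in tumor-like cells, and in acinar enzyme RNA, 7 genes that summed to 239 and 12168 CPM of the free RNA, measured in barcodes of 10 to 100 UMIs. Their part in the ratios below was not tested. A total of 59 barcodes occurred in both libraries.

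Tnf was high in myeloid cells and nearly absent from tumor-like cells. The gene lies at chr17:35199381-35202007 on the minus strand (GRCm38). In the flox library neutrophil-like cells held 812 CPM (764 to 863), and in the library labelled MCT1-KO they held 739 CPM (684 to 797). Macrophage/monocyte-like cells followed with 177 and 249 CPM, and dendritic-like cells with 89.7 and 84.2 CPM. These were the only 3 of 10 classes above the free RNA level of 36.3 CPM over both libraries. Tumor-like cells were lowest, with 6.80 CPM (5.95 to 7.73) and 3.67 CPM (3.19 to 4.22), and their pooled level was 161-fold below that of neutrophil-like cells. Because macrophage/monocyte-like cells were more numerous and deeper than neutrophil-like cells, they carried 63.2% of all Tnf UMIs of kept cells against 22.0% in neutrophil-like cells. A Tnf UMI was found in 39.1% and 38.7% of neutrophil-like cells and in 36.1% and 36.0% of macrophage/monocyte-like cells. After each cell was thinned to 1000 UMIs the shares were 33.2% and 36.8% in neutrophil-like cells, 11.5% and 16.6% in macrophage/monocyte-like cells, and 0.993% and 0.353% in tumor-like cells. With acinar enzyme RNA taken to come from free RNA alone, free RNA was estimated at 57.7% and 37.8% of UMIs in neutrophil-like, 31.3% and 7.47% in macrophage/monocyte-like and 13.5% and 4.54% in tumor-like cells, so the tumor-like share understates the background of the other classes. By this estimate free RNA alone would give a Tnf UMI to 2.13% and 1.32% of thinned neutrophil-like, 1.16% and 0.262% of macrophage/monocyte-like and 0.501% and 0.160% of tumor-like cells, below the measured share in each. Thinning left out 323 neutrophil-like, 25 macrophage/monocyte-like and 311 tumor-like cells with fewer UMIs. Median depths before thinning were 1471 and 1075 UMIs in neutrophil-like, 6322.5 and 5079 UMIs in macrophage/monocyte-like and 16273.5 and 15818 UMIs in tumor-like cells.

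**Figure D1:**
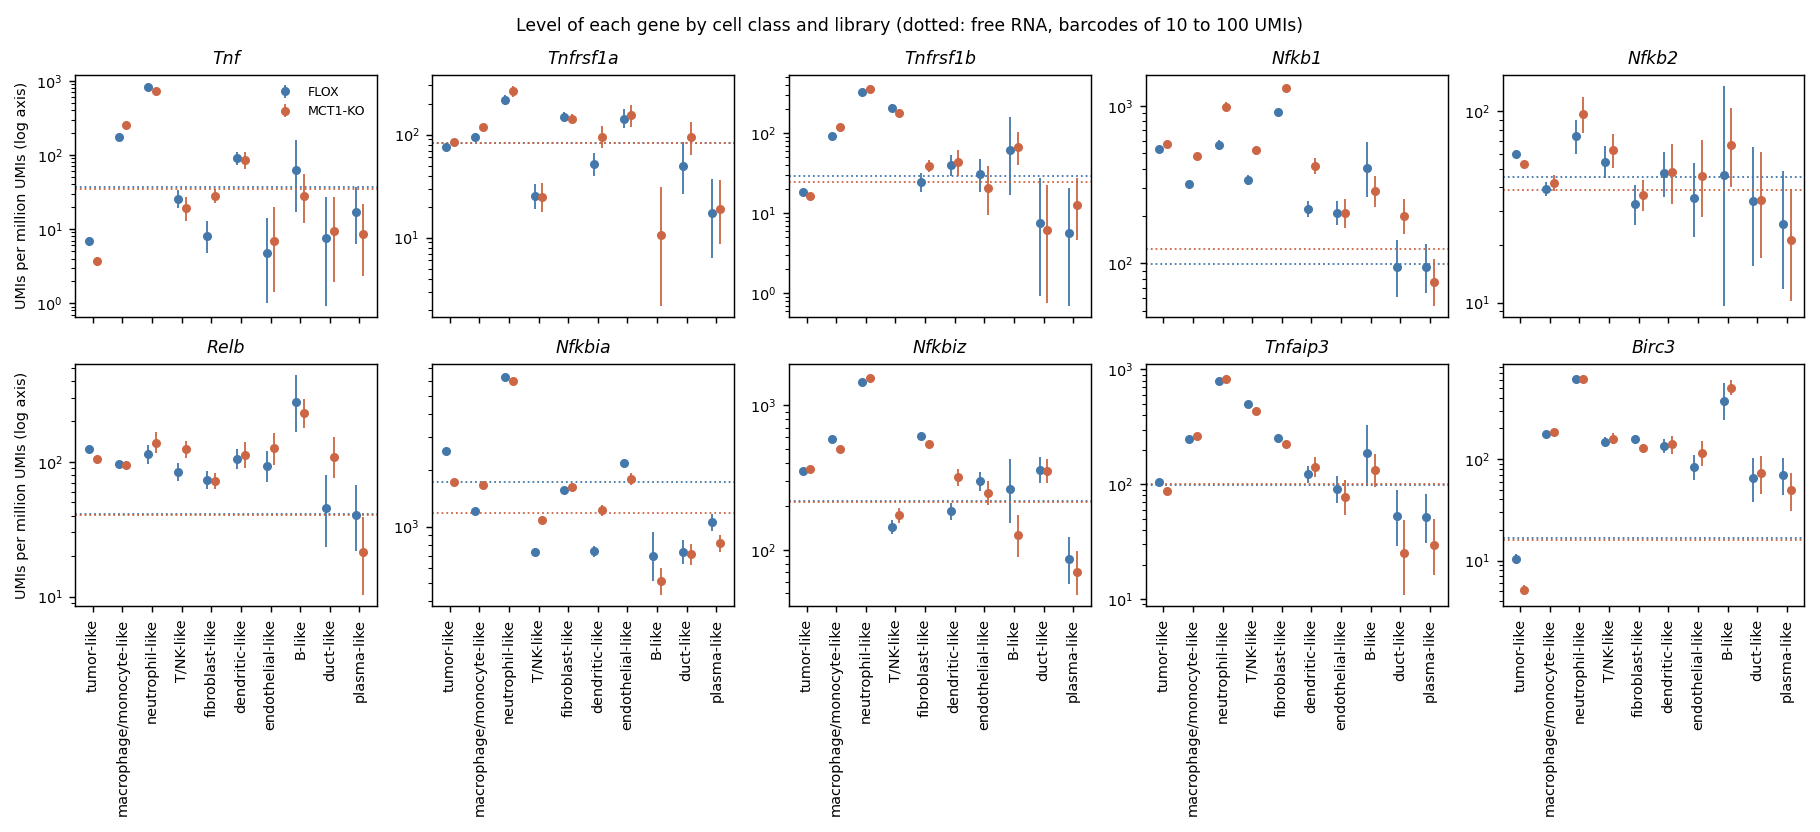
Level of each of the 10 genes in CPM (log axis) by cell class, with blue points for the flox library, orange points for the library labelled MCT1-KO, bars for 95% counting intervals and dotted lines for the level in free RNA; Tnfrsf1a in B-like cells of the flox library, at 0 UMIs, is not drawn. Tnf stands above the free RNA lines in both libraries in neutrophil-like, macrophage/monocyte-like and dendritic-like cells, and Birc3 lies below them only in tumor-like cells.

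The TNF receptors had different class patterns. Tnfrsf1a (chr6:125349362-125362484, plus strand) encodes the receptor with a death domain. It was highest in neutrophil-like cells, at 217 CPM (193 to 244) and 264 CPM (232 to 300). Endothelial-like cells with 143 and 154 CPM and fibroblast-like cells with 149 and 143 CPM came next and did not differ beyond their counting intervals. In tumor-like cells Tnfrsf1a was at 75.7 and 85.5 CPM, close to its free RNA level of 83.6 CPM, and 58.0% of its UMIs lay there since this class is the largest and the deepest. T/NK-like cells held only 25.4 and 24.9 CPM. Tnfrsf1b (chr4:145213463-145246870, minus strand) encodes the receptor without a death domain. It was highest in neutrophil-like cells as well, at 325 CPM (295 to 358) and 354 CPM (316 to 395), followed by T/NK-like cells at 209 and 179 CPM and macrophage/monocyte-like cells at 93.0 and 118 CPM. Tumor-like cells held 18.7 and 16.2 CPM, below the free RNA level of 27.0 CPM. After thinning, 25.3% and 19.95% of T/NK-like cells and 2.15% and 1.52% of tumor-like cells held a Tnfrsf1b UMI, where free RNA alone would give 1.16% and 0.403% in the former class.

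Of the UMIs of both receptor genes together, Tnfrsf1a gave 84.8% (78.8% to 89.6%) in endothelial-like, 82.7% (81.9% to 83.5%) in tumor-like and 81.5% (78.9% to 83.9%) in fibroblast-like cells. It gave 50.3% (48.9% to 51.7%) in macrophage/monocyte-like, 41.2% (38.5% to 44.0%) in neutrophil-like and 11.4% (9.27% to 13.8%) in T/NK-like cells. The highest share, 91.5% (79.6% to 97.6%), was that of duct-like cells, on 47 UMIs, and its interval overlapped those of the former 3 classes. These shares compare UMIs of 3' ends of different transcripts, so their order across classes can be read and the distance from an even split cannot. The share in flox and in the other library was 50.5% and 50.1% in macrophage/monocyte-like cells, 80.2% and 84.1% in tumor-like, 85.8% and 78.5% in fibroblast-like and 56.4% and 68.75% in dendritic-like cells.

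**Figure D2:**
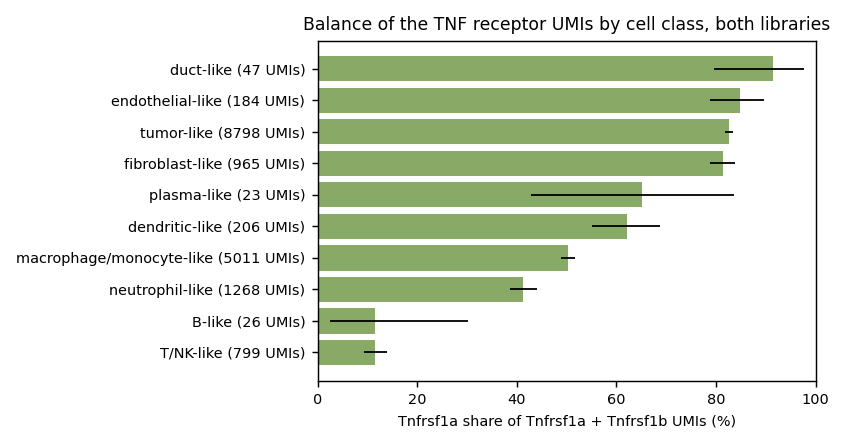
Share of Tnfrsf1a among the UMIs of Tnfrsf1a and Tnfrsf1b (percent, both libraries pooled) by cell class, with the number of UMIs in brackets and bars for exact 95% binomial intervals. The share falls from above 80% in duct-like, endothelial-like, tumor-like and fibroblast-like cells to 11.4% in T/NK-like cells; the duct-like, plasma-like and B-like shares rest on 47, 23 and 26 UMIs.

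The NF-kB subunit genes were present in most classes. Nfkb1 (chr3:135584655-135691547, minus strand), which encodes p105 and its product p50, was highest in fibroblast-like cells at 913 CPM (874 to 954) and 1310 CPM (1271 to 1351). Neutrophil-like cells held 564 and 990 CPM, tumor-like cells 534 and 573 CPM and plasma-like cells, the lowest class, 94.7 and 76.7 CPM. The gap between fibroblast-like and neutrophil-like cells was within the range of the libraries, since the lower fibroblast-like value was below the higher neutrophil-like value. Nfkb2 (chr19:46304320-46312385, plus strand), which encodes p100 and p52 of the non-canonical branch, varied least of the 10 genes. Its highest class, neutrophil-like at 74.0 and 96.4 CPM, was 3.58-fold above its lowest, plasma-like at 25.8 and 21.3 CPM, and 5 of 10 classes were at or below its free RNA level of 42.5 CPM. The pooled level in neutrophil-like cells (83.2 CPM, 71.7 to 96.2) overlapped that of the next class, B-like (63.1 CPM, 39.5 to 95.5). Relb (chr7:19606217-19629438, minus strand), the partner of p52, was highest in B-like cells at 280 CPM (166 to 442) and 232 CPM (179 to 295), on 18 and 66 UMIs. In the 6 next classes, from neutrophil-like to macrophage/monocyte-like cells, its pooled level ran only from 124 to 95.3 CPM, and each neighbour in that order overlapped the next.

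The inhibitors were highest in neutrophil-like cells. Nfkbia (chr12:55489410-55492647, minus strand) encodes IkB alpha, which holds NF-kB in the cytoplasm. Neutrophil-like cells held 6303 CPM (6167 to 6441) and 5960 CPM (5803 to 6121). Tumor-like cells held 2534 CPM (2517 to 2551) in flox and 1739 CPM (1728 to 1750) in the library labelled MCT1-KO, and endothelial-like cells 2179 and 1801 CPM. The free RNA differed in the same direction, with 1739 and 1177 CPM, and 6 of 10 classes lay at or below its pooled level of 1487 CPM. Nfkbiz (chr16:55811375-55838899, minus strand) encodes IkB zeta, a nuclear IkB protein that supports a subset of NF-kB targets such as Lcn2. It was at 1445 and 1539 CPM in neutrophil-like, 613 and 539 CPM in fibroblast-like and 582 and 498 CPM in macrophage/monocyte-like cells. Tnfaip3 (chr10:19000910-19015657, minus strand) encodes A20, a ubiquitin-editing enzyme that dampens TNF receptor signaling. It was at 797 and 834 CPM in neutrophil-like cells and at 497 and 432 CPM in T/NK-like cells, its second class, and at 106 and 88.2 CPM in tumor-like cells, about its free RNA level of 100.02 CPM.

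NF-kB dimers switch on inhibitors of their own pathway, among them Nfkbia and Tnfaip3. The bases before the start sites were therefore searched on both strands for the kB consensus, the 10-base binding motif of NF-kB dimers. Promoter sequence (RefSeq, GRCm38.p6) was matched for 7 of the 10 genes, not for Nfkb1, Relb and Nfkbiz. The consensus lay within 250 bases before an annotated start in 3 of the 7, Nfkbia, Tnfaip3 and Nfkb2, and in 4.46% of 27025 genes. It was absent as these letters from that window of Tnf, Tnfrsf1a, Tnfrsf1b and Birc3. For Tnfrsf1a and Birc3 the 150 bases before the start lay in the GENCODE gene model, for Birc3 with overlap of an exon. Bases outside the windows were not searched, so this absence does not show that a gene lacks kB sites. The stretches below, written 5' to 3' on the gene's strand, show the match nearest to the start of Nfkbia and of Tnfaip3 and a pair of matches of Nfkb2, with the consensus in capitals. Not shown are a further Tnfaip3 match 125 to 116 bases before the start and 1 match at each of 2 other annotated Nfkb2 starts, 236 and 225 bases before them. The Nfkbia stretch is the 150 bases before the start (chr12:55492648-55492797, minus strand) and lies directly upstream of the gene model. The Tnfaip3 stretch is the 30 bases before the start (chr10:19015411-19015440, minus strand), inside the GENCODE gene model and outside its exons. The Nfkb2 stretch runs from 39 to 10 bases before the start (chr19:46304698-46304727, plus strand), in an exon of that gene model, and its capitals cover 2 overlapping matches on opposite strands, while a further match begins 11 bases before the start. The Tnf stretch of 150 bases (chr17:35202008-35202157, minus strand) is given for comparison.
Nfkbia: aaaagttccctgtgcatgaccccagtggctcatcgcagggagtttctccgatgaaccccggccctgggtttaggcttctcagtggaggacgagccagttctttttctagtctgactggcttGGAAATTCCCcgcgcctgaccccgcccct
Tnfaip3: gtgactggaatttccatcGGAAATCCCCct
Nfkb2: GGGAATTCCCCccctcggggggccgaaagg
Tnf: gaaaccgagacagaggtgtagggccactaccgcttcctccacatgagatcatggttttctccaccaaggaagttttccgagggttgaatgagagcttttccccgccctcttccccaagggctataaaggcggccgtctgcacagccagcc

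Birc3 was near 0 in tumor-like cells and present in all other classes. The gene (chr9:7848699-7873186, minus strand) encodes cIAP2, a ubiquitin ligase of the TNF receptor complex that keeps cells alive. It was at 619 CPM (577 to 663) and 618 CPM (568 to 671) in neutrophil-like cells and at 373 CPM (239 to 555) and 503 CPM (424 to 592) in B-like cells. Macrophage/monocyte-like, T/NK-like, fibroblast-like and dendritic-like cells lay between 128 and 186 CPM in both libraries. Tumor-like cells held 10.4 CPM (9.33 to 11.5) and 5.13 CPM (4.55 to 5.77), the only class at or below the free RNA level of 16.4 CPM and 86.6-fold below neutrophil-like cells. After thinning, a Birc3 UMI was found in 1.45% and 0.353% of tumor-like cells and in 41.8% and 46.0% of neutrophil-like cells. Free RNA alone, by the estimate above, would give a Birc3 UMI to 0.227% and 0.0720% of the former and 0.967% and 0.598% of the latter cells, so the measured shares were higher in both classes. In all, neutrophil-like cells had the highest pooled level for 8 of the 10 genes, beside 9.93% of 11012 genes with at least 500 UMIs, with Nfkb1 highest in fibroblast-like and Relb in B-like cells. Among the 8 is Nfkb2, whose interval overlapped that of B-like cells.

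To compare the libraries, levels of the 10 genes were set against each other within the 7 classes with at least 50 cells in each. A gene with at least 50 UMIs in the class counted as higher or lower where its ratio passed 1.5-fold. In tumor-like cells 2 of 10 genes were lower in the library labelled MCT1-KO, beside 8.51% of 13239 genes, and 0 of 10 were higher, beside 5.54%. These were Tnf (ratio 0.54, 0.45 to 0.66) and Birc3 (0.49, 0.42 to 0.58), both at levels below the free RNA. The Tnf ratio turned to 1.08 when each cell was named from markers without clustering and to 1.06 with free RNA subtracted, and it was 0.79 with no upper limit on genes per cell, while Birc3 was at 0.75 without clustering, so these calls ended there. With free RNA subtracted the Birc3 ratio was 0.49, and 9 of 10 alternatives left it past the threshold. Nfkbia was just inside the threshold, at 0.69 (0.68 to 0.69). Nfkb1, Nfkbiz and Tnfrsf1a had ratios of 1.07, 1.03 and 1.13 in the same cells, while the median gene was at 1.01. The leukocyte gene Ptprc moved in the same direction as Tnf and Birc3 in tumor-like cells, from 6.89 to 3.44 CPM, and the summed level of 11 macrophage/monocyte markers from 433 to 177 CPM. The part of these values in the ratios of Tnf and Birc3 was not tested.

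Nfkb1 was past 1.5-fold higher in the library labelled MCT1-KO in 4 of the 7 classes. The share of all genes that were so in as many classes was not counted. The classes come from the same pair of libraries and are not repeats of each other. In macrophage/monocyte-like cells it was the only one of 10 genes past 1.5-fold, with 318 against 479 CPM, a ratio of 1.504 (1.44 to 1.57), beside 6.63% of 11093 genes that were higher and 9.14% that were lower. In neutrophil-like cells it was at 564 against 990 CPM, a ratio of 1.75 (1.59 to 1.94), again alone among the 10, beside 14.3% of 4877 genes higher and 10.6% lower, and the median gene of that class had a ratio of 1.08. The acinar genes of the same cells were at 138 against 4600 CPM, and their part in the ratio was not tested. In T/NK-like cells it was at 340 against 523 CPM, a ratio of 1.54 (1.39 to 1.70), alone among the 10, beside 6.58% of 7178 genes higher and 9.38% lower. In these T/NK-like cells the epithelial keratins Krt18 (57.6 against 105 CPM, ratio 1.83, 1.44 to 2.34) and Krt8 (51.7 against 76.1 CPM, ratio 1.47, 1.12 to 1.93) and the acinar genes (96.1 against 2003 CPM) moved in the same direction. The 9 tumor-like markers, 3 of them at 0 in each library, summed to 137 and 224 CPM, whereas Ptprc was at 896 against 706 CPM and the 11 macrophage/monocyte markers summed to 1013 and 494 CPM. Their part in the ratio was not tested. In dendritic-like cells it was at 222 against 417 CPM, a ratio of 1.88 (1.58 to 2.23). In fibroblast-like cells, with 913 against 1310 CPM, the ratio of 1.44 (1.36 to 1.51) stayed under the threshold, and in tumor-like and endothelial-like cells it was 1.07 (1.05 to 1.09) and 1.00 (0.76 to 1.32). Nfkb1 in free RNA was at 99.3 and 123 CPM. With free RNA subtracted the ratio in macrophage/monocyte-like, neutrophil-like and T/NK-like cells fell to 1.21, 1.27 and 1.20, so the call in these 3 classes ended under that alternative, while that in dendritic-like cells did not. The subtraction also takes the estimated free RNA out of the class totals. In these 3 classes that was 31.3%, 57.7% and 40.2% in flox and 7.47%, 37.8% and 16.5% in the other library. A larger share in flox lowers the ratio of any gene scarce in free RNA. Of Nfkb1 itself, free RNA would give 31.1, 57.3 and 39.9 CPM in flox and 9.17, 46.4 and 20.2 CPM in the other library. Of 10 alternatives, 6 left Nfkb1 past the threshold in macrophage/monocyte-like and 6 in T/NK-like cells. The call also ended in the former at resolution 0.4 (1.46), without clustering (1.42) and with no upper limit on genes (1.45), and in the latter without high doublet scores (1.43), without clustering (1.49) and by the mean of CPM per cell (1.47).

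Dendritic-like cells had the most genes past the threshold. There 4 of 10 genes were higher in the library labelled MCT1-KO, beside 9.19% of 4514 genes, and 0 of 10 were lower, beside 12.9%. In addition to Nfkb1 these were Tnfrsf1a (51.5 against 95.8 CPM, ratio 1.86, 1.30 to 2.68), Nfkbiz (184 against 318 CPM, ratio 1.72, 1.42 to 2.09) and Nfkbia (739 against 1219 CPM, ratio 1.65, 1.499 to 1.81). Pooled Nfkbia and Tnfrsf1a in this class lay at or below free RNA. The ratio of Nfkbia was 1.44 by the mean of CPM per cell, 1.32 with no upper limit on genes and 5.31 with free RNA subtracted, and that of Nfkbiz was 1.36 and 1.46 under the former pair, so both calls ended there. The class held 117 and 106 cells, and the epithelial gene Krt8 was at 47.3 and 197 CPM in them, which moved in the same direction as these genes, as did the summed tumor-like markers, from 116 to 396 CPM. Their part in the ratios was not tested.

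Fibroblast-like cells, the class in which the Cre is meant to act, had 2 of 10 genes higher in the library labelled MCT1-KO, beside 9.81% of 8580 genes, and 0 of 10 lower, beside 11.2%. Tnf was at 8.05 CPM (18 UMIs) against 28.2 CPM (89 UMIs), a ratio of 3.498 (2.09 to 6.17). Tnfrsf1b was at 24.6 against 39.2 CPM, a ratio of 1.60 (1.15 to 2.23). Both Tnf values were below the free RNA level. The Tnf UMIs lay in 12 of 233 cells and 35 of 419 cells, with up to 13 UMIs in 1 cell. In the library labelled MCT1-KO the 35 cells held 4904 CPM of the 11 macrophage/monocyte markers and the other 384 cells 877 CPM, whereas in the flox library the levels were 1368 and 1137 CPM. Without the 8% of barcodes with the highest doublet scores the Tnf ratio was 1.31 and the Tnfrsf1b ratio 1.26, and neither was past the threshold. Without clustering these ratios were 1.43 and 1.24, and Tnfrsf1b was at 1.09 by the mean of CPM per cell. Nfkbia (ratio 1.04, 1.00 to 1.08), Relb (0.98), Nfkb2 (1.11), Tnfaip3 (0.90) and Nfkbiz (0.88) stayed within 1.5-fold in this class. In the same cells Ptprc was at 15.7 against 25.3 CPM (ratio 1.62, 1.07 to 2.48) and the epithelial keratin Krt7 at 7.16 against 29.1 CPM (4.07, 2.38 to 7.41). The 11 macrophage/monocyte markers summed to 1154 and 1291 CPM, the 9 tumor-like markers to 137 and 245 CPM and the 10 fibroblast markers to 25534 and 18905 CPM, while 5 adipocyte markers summed to 0.895 CPM, with 3 of them at 0, and 1019 CPM. The part of these values in the ratios of the class was not tested.

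In endothelial-like cells 7 of 10 genes reached 50 UMIs and 0 of 7 passed the threshold, beside 7.44% of 3372 genes higher and 14.5% lower. In T/NK-like cells Nfkbia (736 against 1082 CPM, ratio 1.47, 1.37 to 1.58) and Relb (84.4 against 124 CPM, ratio 1.47, 1.19 to 1.81) lay just under the threshold. In neutrophil-like cells, where most of the 10 genes were highest, Tnf had a ratio of 0.91 (0.82 to 1.00), Nfkbia of 0.95 (0.91 to 0.98), Tnfaip3 of 1.05 (0.95 to 1.15) and Birc3 of 1.00 (0.90 to 1.11). With free RNA subtracted the Tnf ratio was 0.62, past the threshold. Free RNA would give only 21.5 and 13.3 CPM of Tnf in these cells. The subtraction also took 57.7% and 37.8% out of the class totals, which lowers the ratio of any gene scarce in free RNA. The dissociation and heat shock list holds none of the 10 genes. It was lower in the library labelled MCT1-KO for 10 of 13 genes in tumor-like, 8 of 13 in macrophage/monocyte-like and 10 of 12 in neutrophil-like cells. In T/NK-like and dendritic-like cells 7 of 13 were lower, in fibroblast-like cells 6 of 13 and in endothelial-like cells 11 of 13. None was higher in any of the 7 classes. Beside this, from 8.51% to 14.5% of all genes per class were lower and from 5.54% to 14.3% higher.

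For 6 of the 10 genes the ratio was above 1 in one class and below 1 in another with counting intervals that held 1 in neither, beside 27.6% of 3749 genes with at least 50 UMIs in 6 or more of the 7 classes. For 4 of these, Tnf, Tnfrsf1b, Nfkbia and Nfkbiz, such a ratio was past 1.5-fold, beside 16.3%. The 10 genes were not matched in depth to those 3749 genes, on which the width of the intervals depends, so the counts are given as a description.

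**Figure D3:**
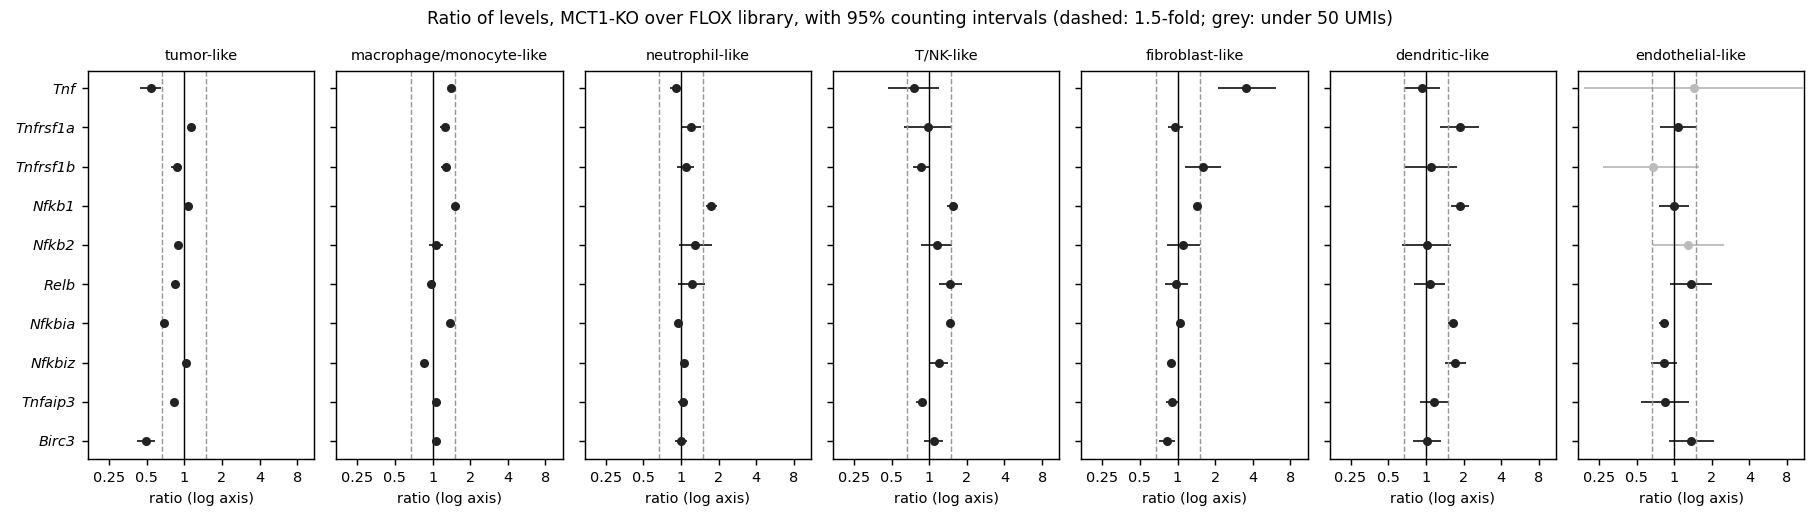
Ratio of the level in the library labelled MCT1-KO over the flox library (log axis) for each gene in 7 classes, with 95% counting intervals, a solid line at 1, dashed lines at 1.5-fold and grey points for genes under 50 UMIs. Nfkb1 lies at or right of the upper dashed line in macrophage/monocyte-like, neutrophil-like, T/NK-like and dendritic-like cells, and Tnf and Birc3 lie left of the lower line in tumor-like cells.

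Within the macrophage/monocyte-like class, the pathway genes and their ratios differed between clusters. Cluster 6, led by Arg1, Il10 and F13a1, held 699 and 681 cells, and cluster 2, led by Mertk and Fcrls, held 1286 and 942 cells. Tnf in cluster 6 was at 314 CPM in flox and 526 CPM in the other library, a ratio of 1.67, while in cluster 2 it was at 94.7 and 59.1 CPM, a ratio of 0.62. The ratios thus pointed in opposite directions within 1 class. Nfkb1 in cluster 6 was at 409 and 783 CPM, a ratio of 1.92, and in cluster 2 at 264 and 289 CPM, a ratio of 1.09. Nfkbia in cluster 6 was at 1854 and 2770 CPM and in cluster 2 at 771 and 917 CPM. Nfkbiz was at 664 and 746 CPM in cluster 6 but at 540 and 342 CPM in cluster 2. Tnfaip3 followed the same pattern, with 331 and 440 CPM in cluster 6 and 204 and 152 CPM in cluster 2. In the cycling cluster 13, with 227 and 133 cells, Tnf was at 170 and 163 CPM and Nfkb1 at 311 and 298 CPM.

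The tumor-like class held 5 clusters. Nfkb1 was highest in cluster 4, led by the cytokine genes Lif, Areg and Il11, at 781 CPM in flox and 1185 CPM in the other library, a ratio of 1.52, and lowest in the cycling cluster 8 at 240 and 279 CPM, a ratio of 1.16. In the other 3 clusters its ratio was between 0.94 and 1.01. Nfkbia was lower in the library labelled MCT1-KO in 4 clusters, with ratios of 0.64 in cluster 1, 0.67 in cluster 7, 0.67 in cluster 8 and 0.63 in cluster 14, and was at 2697 and 2576 CPM in cluster 4, a ratio of 0.96. Tnfaip3 was highest in cluster 4 as well, at 169 and 174 CPM. Tnf, at most 16.8 CPM in any of these clusters, was at 16.8 and 3.06 CPM in cluster 4 and at 3.47 and 4.09 CPM in cluster 8. Birc3 was at most 17.6 CPM in every tumor-like cluster of both libraries.

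**Figure D4:**
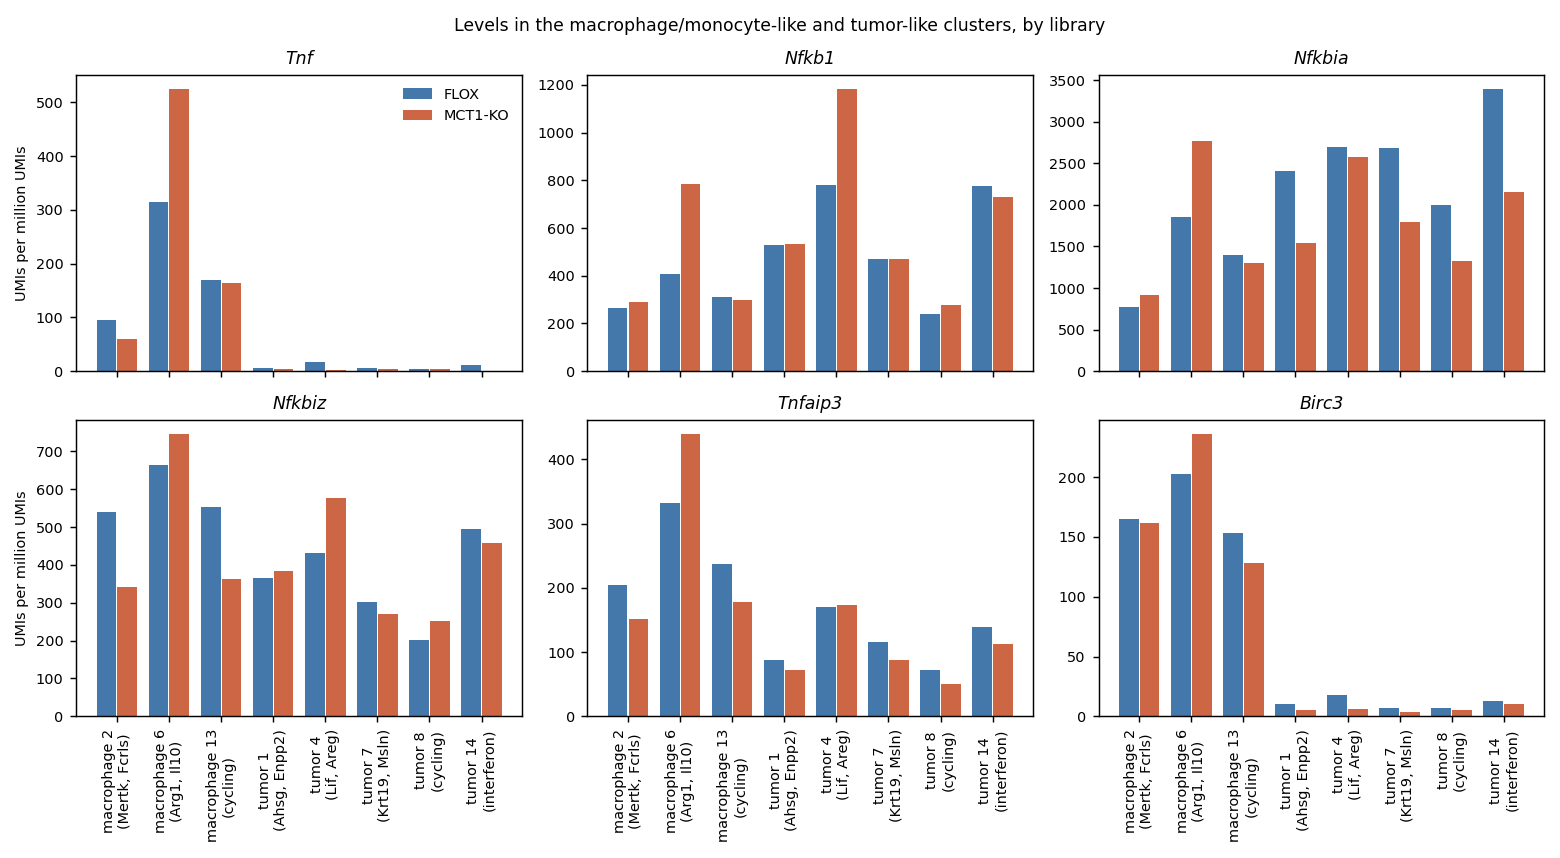
Level of 6 of the genes (CPM, axes from 0) in the 3 macrophage/monocyte-like and 5 tumor-like clusters, with blue bars for the flox library and orange bars for the library labelled MCT1-KO; no error is drawn because each bar is 1 library, and tumor cluster 14 is led by Gbp genes and Cxcl10. Macrophage cluster 6 and tumor cluster 4 stand out for Nfkb1, and Tnf and Birc3 are near 0 in all tumor-like clusters.

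Cells with a Tnf UMI were compared with cells of the same class and library without one. In macrophage/monocyte-like cells Nfkbia was at 1696 against 881 CPM in the flox library (798 and 1414 cells), a ratio of 1.92 (1.87 to 1.98), and at 2728 against 1045 CPM in the library labelled MCT1-KO (633 and 1123 cells), a ratio of 2.61 (2.53 to 2.70). Tnfaip3 had ratios of 1.47 (1.38 to 1.57) and 2.44 (2.25 to 2.64), Nfkbiz of 1.38 (1.33 to 1.45) and 2.17 (2.05 to 2.30) and Nfkb1 of 1.27 (1.20 to 1.35) and 1.84 (1.74 to 1.95). The intervals of Tnfrsf1a held 1, at 0.98 (0.88 to 1.09) and 1.00 (0.89 to 1.13). Of the other 9 genes, 1 was past 1.5-fold in the flox library, beside 2.47% of 10144 genes, and 4 were in the other library, beside 5.21% of 9217 genes. Median depths with and without a Tnf UMI were 7073.5 and 5918 UMIs in flox and 5265 and 4991 UMIs in the other library.

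The same split was made within clusters. Within cluster 6 alone, where 45.6% and 59.3% of cells held a Tnf UMI, the ratio of Nfkbia was 2.05 in flox and 1.88 in the other library, that of Tnfaip3 1.85 and 1.93 and that of Nfkbiz 1.74 and 1.94. The libraries thus lay closer together within cluster 6 than over the class for Nfkbia, Tnfaip3 and Nfkbiz. Within cluster 13 they did not. There 101 cells with and 126 without a Tnf UMI were compared in flox, and 55 and 78 in the other library. The ratio of Nfkbia was 1.65 in flox and 2.74 in the other library, that of Tnfaip3 1.21 and 2.22 and that of Nfkbiz 1.16 and 2.19. Within cluster 2, where 29.4% and 18.5% of cells held a Tnf UMI, the ratio of Nfkbia was 1.33 and 1.81 and that of Tnfaip3 1.09 and 1.48.

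Neutrophil-like cells were split in the same way. Nfkbia was at 9376 against 4399 CPM in flox (297 and 462 cells), a ratio of 2.13 (2.04 to 2.23), and at 8552 against 4339 CPM in the library labelled MCT1-KO (273 and 433 cells), a ratio of 1.97 (1.87 to 2.08). Tnfaip3 had ratios of 2.22 (1.96 to 2.52) and 1.76 (1.52 to 2.04), and Birc3 of 1.45 (1.26 to 1.67) and 1.44 (1.21 to 1.70). Tnfrsf1b, the receptor of immune cells, had ratios of 1.53 (1.25 to 1.85) and 1.29 (1.02 to 1.61), and Tnfrsf1a of 0.72 (0.55 to 0.93) and 0.92 (0.70 to 1.20). The genes past 1.5-fold numbered 5 of 9 in flox, beside 9.32% of 3359 genes, and 3 of 9 in the other library, beside 7.80% of 2719 genes. In tumor-like cells, where Tnf lay below free RNA and the estimated share of free RNA was lower than in neutrophil-like cells as given above, the same split gave Nfkbia 1.21 (1.18 to 1.23) and 1.35 (1.31 to 1.38), Tnfaip3 1.23 (1.09 to 1.38) and 1.35 (1.19 to 1.53) and Birc3 1.62 (1.13 to 2.27) and 1.96 (1.20 to 3.03), so ratios above 1 also occurred there. A Tnf UMI depends on depth, and cells without one include cells whose Tnf RNA was not caught.

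**Figure D5:**
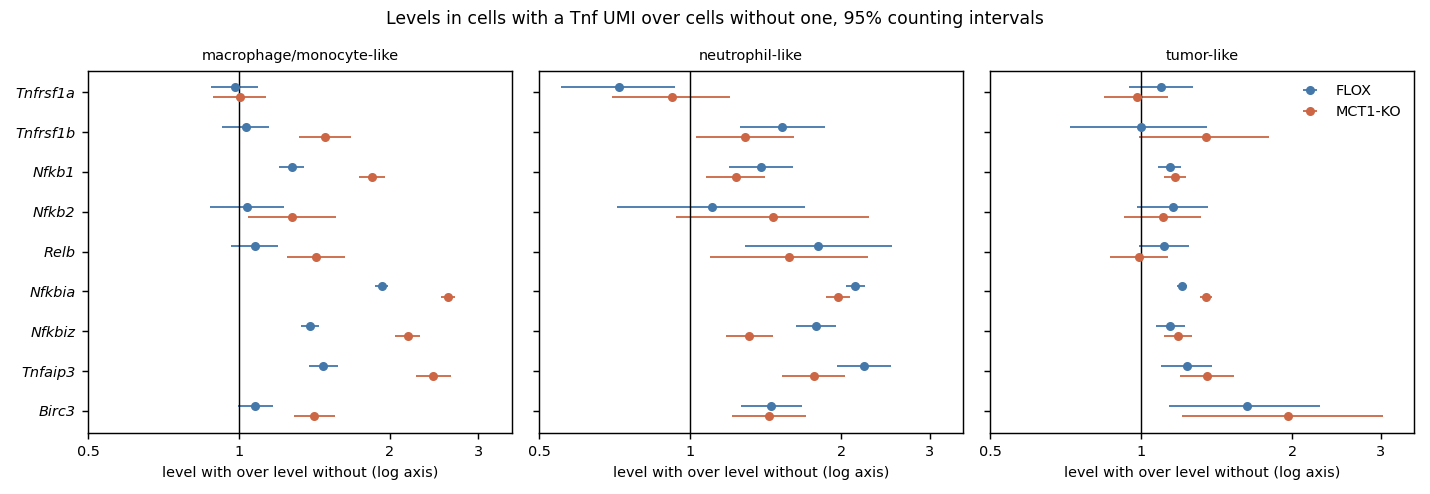
Ratio of the level in cells with a Tnf UMI over cells without one (log axis) for the other 9 genes in 3 classes, with blue points for the flox library, orange points for the library labelled MCT1-KO and 95% counting intervals. Nfkbia, Nfkbiz and Tnfaip3 lie right of 1 in both libraries in macrophage/monocyte-like and neutrophil-like cells, while Tnfrsf1a does not.

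A further 62 genes of the pathway, other ligands, receptors, adaptors, kinases, subunits and targets, were set beside the 10. Of the 62, 56 had at least 500 UMIs. By pooled level 15 of 56 were highest in neutrophil-like cells, beside 9.93% of 11012 genes, 8 of 56 in T/NK-like cells, beside 11.4%, and 2 of 56, Tnfrsf12a and Rela, in tumor-like cells, beside 14.1%. Macrophage/monocyte-like and dendritic-like cells were highest for 8 of 56 each, beside 6.27% and 5.81%, and fibroblast-like and B-like cells for 5 of 56 each, beside 7.69% and 18.1%. Endothelial-like cells were highest for 4 of 56, duct-like for 1 and plasma-like for 0, beside 11.1%, 12.3% and 3.4%. In tumor-like cells 55 of them reached 50 UMIs, of which 11 were lower and 1 higher in the library labelled MCT1-KO, beside 8.51% and 5.54% of all genes, with a median ratio of 0.88 beside 1.01 for all genes tested in the class. The largest differences there were Tnfrsf9, the receptor 4-1BB (43.8 against 18.0 CPM), and Cd40 (0.88 against 0.36 CPM) on the lower side and the lipocalin gene Lcn2 (22.0 against 38.7 CPM) on the higher side. Saa3, the next on the higher side, was at 8.24 against 11.5 CPM, a ratio of 1.40. Cd40 in tumor-like cells rested on 30 and 20 UMIs, and its pooled level was 45.7 CPM in macrophage/monocyte-like and 56.5 CPM in dendritic-like cells. The 11 macrophage/monocyte markers in tumor-like cells summed to 433 and 177 CPM, and their part in these ratios was not tested.

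In macrophage/monocyte-like cells 7 of 56 were lower and 7 higher, beside 9.14% and 6.63% of all genes, with a median ratio of 1.05 beside 1.00 for all genes. Saa3, an acute phase gene, was at 86.6 against 929 CPM, a ratio of 10.7 (10.1 to 11.4), and Il6 at 7.25 against 33.6 CPM, while Tnfrsf9 was at 8.20 against 3.98 CPM and Zfp36, which encodes a protein that destabilizes Tnf mRNA, at 958 against 549 CPM. Tnfrsf9 rested on 120 and 38 UMIs in this class, and its pooled level in T/NK-like cells was 519 CPM. The 8 T cell markers summed to 15.1 and 6.38 CPM in macrophage/monocyte-like cells, and their part in the Tnfrsf9 ratio was not tested. In neutrophil-like cells 7 of 37 were lower and 9 higher, beside 10.6% and 14.3%, with a median ratio of 1.34 beside 1.08. Zfp36 was at 1922 against 541 CPM, a ratio of 0.28 (0.26 to 0.31), and Ccl2 at 101 against 32.9 CPM, whereas Saa3 was at 40.1 against 218 CPM and Sod2, a mitochondrial antioxidant enzyme, at 266 against 576 CPM.

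In T/NK-like cells 6 of 46 were lower and 8 higher, beside 9.38% and 6.58%, and both medians were 0.97, with Cxcl1 (28.8 against 111 CPM) and the ligand Cd40lg (19.998 against 47.3 CPM) on the higher side and Tradd (19.998 against 7.67 CPM) and the ligand Tnfsf10 (64.4 against 26.9 CPM) on the lower. Krt8, Krt18 and the acinar genes were higher and the macrophage/monocyte markers lower in T/NK-like cells of the library labelled MCT1-KO, as given above. Their part in these differences was not tested. In fibroblast-like cells 3 of 46 were lower and 12 higher, beside 11.2% and 9.81%, with a median ratio of 1.16 beside 0.98. Saa3 there was at 3070 against 1765 CPM, opposite in direction to macrophage/monocyte-like and neutrophil-like cells, Tnfrsf9 at 13.4 against 6.33 CPM, Lcn2 at 67.1 against 144 CPM and Il1b at 81.4 against 166 CPM. Ptprc, Krt7 and the adipocyte markers were higher and Col1a1 and Col1a2 lower in the same cells of that library, as given above, and their part in these differences was not tested. Both medians of the 2 remaining classes lay close to those of all genes, at 1.02 beside 0.98 in dendritic-like and 0.97 beside 0.95 in endothelial-like cells. Beside 12.9% of all genes lower and 9.19% higher in dendritic-like cells, 6 of 38 were lower, led by Chuk (82.2 against 20.3 CPM), an IkB kinase, and Traf5 (39.0 against 18.9 CPM), and 9 higher, led by Tnfrsf12a (45.7 against 122 CPM) and Ptgs2 (50.7 against 125 CPM). Krt8 and the summed tumor-like markers were higher in these dendritic-like cells of the library labelled MCT1-KO, as given above, and Tnfrsf12a was highest in tumor-like cells. Their part in these differences was not tested. Beside 14.5% lower and 7.44% higher in endothelial-like cells, 7 of 20 were lower, led by Bcl2a1b (67.5 against 25.2 CPM) and Cxcl2 (489 against 229 CPM), and 2 higher, the adhesion molecule gene Icam1 (80.4 against 218 CPM) and the death receptor gene Fas (37.0 against 68.8 CPM). By pooled level Bcl2a1b, Cxcl2, Icam1 and Fas were all highest in neutrophil-like cells, and Bcl2a1b rested on 42 and 11 UMIs in endothelial-like cells. Ptprc in endothelial-like cells was at 27.3 against 4.59 CPM (17 and 2 UMIs, ratio 0.17, 0.02 to 0.71). The part of leukocyte RNA in these differences was not tested.

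Over the 17 points of class and library with at least 50 cells, from 10 classes, the pattern of Tnf on the log2(CPM + 1) scale was most like that of Fgr (Pearson r 0.96), Cd300lf (0.96) and Igsf6 (0.95), among 11002 genes. For Tnfrsf1a the closest genes were Ifitm2 (0.94), Gda (0.93) and Sqor (0.91), and for Tnfrsf1b Cd101 (0.94), Dgat1 (0.92) and 1600014C10Rik (0.92). For Nfkb1 they were Akt2 (0.90), Sik2 (0.88) and Depdc5 (0.85), for Nfkb2 Ube2d2a (0.92), Cdkn1b (0.91) and Lmbr1l (0.90), and for Relb Rnf216 (0.94), Ube3b (0.90) and Dhx16 (0.90). Nfkbia was closest to Morrbid (0.92), Selenon (0.89) and F5 (0.88), Nfkbiz to Sfxn5 (0.96), Sqor (0.94) and Zswim4 (0.93), Tnfaip3 to Dgat1 (0.92), Mknk2 (0.91) and Ehd1 (0.90), and Birc3 to Ddx3y (0.90), Pag1 (0.89) and Mylip (0.88). Among the 10 genes the closest pair was Tnfrsf1b and Tnfaip3 (0.93), followed by Tnfrsf1a and Nfkbiz (0.86), and the least alike was Tnfrsf1a and Tnfrsf1b (0.07). The points share libraries and differ in depth, and the values are given as a description.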

How the data were processed

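Tumors were dissociated into single cells. The labels name a SeekOne MM 3' microwell kit, whereas the study's methods name a droplet system, with reads processed by Fastp and SeekOneTools. The authors deposited UMI counts per gene and barcode, not normalized. The submitters' processing notes name the human build GRCh38 and Seurat 4.0.0, while all 32285 genes carry mouse identifiers. The unfiltered tables held 1437105 and 1433633 barcodes with 177334432 and 151118092 UMIs, and the kept cells 61149689 and 81494894 UMIs.

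Barcodes were filtered as stated above. Cells of both libraries were integrated by canonical correlation on 2000 variable genes, without the 10 members and the 62 pathway genes, and clustered on 20 dimensions at resolution 0.8 (Seurat 5.3.0, Matrix 1.6.5, R 4.3.3). Clusters were named from fixed marker lists, with score thresholds set after the clusters were seen, and doublets were kept. UMI counts were summed per class and library and divided by the class total (CPM). Since 3' UMIs are not divided by transcript length, levels were compared between classes and libraries, not between genes. Intervals were exact Poisson (levels), conditional exact (ratios) and Clopper-Pearson (shares), all 95%, and cover counting error only. A gene was called with at least 50 UMIs in the class and a ratio past 1.5-fold. The self-written code (scipy 1.17.1 for intervals, scikit-learn 1.9.0 for doublet scores, matplotlib 3.10.9 for plots, with pandas 2.3.3 and numpy 2.4.6 under Python 3.11.15) was tested on simulated data.

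The members and lists were chosen with earlier results of these data known. All 10 members are named, with the 2 pathway genes of largest fold in each direction per class and the 3 genes most alike to each member among those with at least 500 UMIs. Genes other than these were named as checks after their values were seen. Gene positions are from GENCODE vM21 and GRCm38. Alternatives covered the cell filters, doublets, shared barcodes, resolution, class naming, scaling, free RNA and the fold. No replicate could be left out.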

Additional observations from a re-analysis of the deposited data

Results flagged for a closer look

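For 6 of the 10 genes the ratio of the library labelled MCT1-KO over the flox library lay above 1 in one class and below 1 in another, with counting intervals that held 1 in neither, and for 4 of these at least 1 such ratio was past 1.5-fold. Among 3749 genes with at least 50 UMIs in 6 or more classes, the fewest that any of the 10 reached, 27.6% had such opposite ratios, and 16.3% had them with a ratio past 1.5-fold. The difference between the classes was not tested in any of them, since each ratio compares 1 library with 1 library. Tnf had a ratio of 3.498 (2.09 to 6.17) in fibroblast-like and 0.540 (0.445 to 0.656) in tumor-like cells, both at levels below the free RNA. The ratio in tumor-like cells turned to 1.08 and 1.06 under 2 alternatives, and that in fibroblast-like cells was 1.31 without the barcodes of highest doublet score. Tnfrsf1b had a ratio of 1.60 (1.15 to 2.23) in fibroblast-like and 0.857 (0.735 to 0.9992) in T/NK-like cells. The former was past 1.5-fold in 7 of 10 alternatives, and not without the highest doublet scores (1.26), without clustering (1.24) or by the mean of CPM per cell (1.09). Nfkbia had a ratio of 1.65 (1.499 to 1.81) in dendritic-like and 0.686 (0.680 to 0.693) in tumor-like cells. Nfkbiz had a ratio of 1.72 (1.42 to 2.09) in dendritic-like and 0.857 (0.827 to 0.888) in macrophage/monocyte-like cells. The ratios of Nfkbia and Nfkbiz in dendritic-like cells were past 1.5-fold in 7 of 9 alternatives each, and not by the mean of CPM per cell (1.44 and 1.36) or with no upper limit on genes (1.32 and 1.46). Of the other genes, Relb was at 1.47 (1.19 to 1.81) in T/NK-like and 0.837 (0.804 to 0.871) in tumor-like cells, and Tnfaip3 at 1.06 (1.004 to 1.11) in macrophage/monocyte-like and 0.835 (0.7995 to 0.872) in tumor-like cells.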

How the results depend on the processing

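Of 67 pairs of class and gene, 9 were past 1.5-fold higher and 2 lower in the library labelled MCT1-KO. Naming each cell from markers without clustering gave 2 of 57 pairs higher and 0 lower, in a tumor-like class of 1003 cells in place of 6413. Only 1 of the 11 calls was kept there, and the pairs of dendritic-like cells could not be compared. At a 2-fold threshold 1 pair was higher and 1 lower. With free RNA subtracted, 65 pairs could be compared, of which 8 were higher and 6 lower, and with no upper limit on genes per cell 7 were higher and 1 lower. The subtraction took a larger share out of the flox total in each class, which lowers the ratio of genes scarce in free RNA. The other settings left 6 to 10 pairs higher and 2 or 3 lower. The ratio of Tnf in tumor-like cells turned to 1.08 when cells were named without clustering and to 1.06 with free RNA subtracted. Among 105 values of the 11 pairs under the alternatives, 83 were still past the threshold and 103 kept their direction. The settings differed widely. All 11 were still past it with at least 1000 UMIs, with a mitochondrial share up to 5% and without shared barcodes. The same held with mitochondrial, acinar, dissociation and heat shock genes left out of the total. With free RNA subtracted 6 were, and without clustering 1 was. Nfkb1 ranged from 1.21 to 1.53 in macrophage/monocyte-like, 1.27 to 1.80 in neutrophil-like, 1.20 to 1.66 in T/NK-like and 1.53 to 1.90 in dendritic-like cells. Birc3 in tumor-like cells ranged from 0.383 to 0.745, and Nfkbia in dendritic-like cells from 1.32 to 5.31. The cause of these changes was not tested. Neutrophil-like cells were highest for 8 of 10 genes under each clustering alternative but the one with no upper limit on genes, which gave 9 because no B-like cluster, the class where Relb was highest, was named there. No paired analysis was possible because each genotype has 1 library. Tnf in tumor-like and fibroblast-like cells lay below the free RNA level, which limits what its ratios can show. Birc3 in tumor-like cells did as well. Its call was kept in 9 of 10 alternatives, free RNA subtraction (0.492) included, and ended only without clustering (0.745). In the same cells Ptprc was at 6.89 against 3.44 CPM and the 11 macrophage/monocyte markers summed to 433 against 177 CPM. The part of these values in the Birc3 ratio was not tested.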
